A study of Mus musculus with 3 samples.

Results

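Malat1, Neat1, Meg3, Gm26917, Gm20417 and Kcnq1ot1 are 6 of the 51912 genes counted in 3 single-cell libraries of lymph node (LN) stroma, and they are described here as nuclear long noncoding RNAs. They were found by their symbols and were chosen by earlier values from these same libraries, among them the share of unique molecular identifiers (UMIs) per barcode. Their levels and co-variation are therefore given as a description, without a test. All mice were C57BL/6 carrying Tg(Cxcl13-Cre/tdTomato), in which cells that have made the follicular chemokine CXCL13 turn red, and live podoplanin+ CD31- CD45- TdTomato+ cells were sorted from draining LNs. The 2-IC mice had received antigen immune complexes (ICs) 7 days and 24 h before (replicates 1 and 2, written 2-IC-1 and 2-IC-2), and the 1-IC mice a single IC 24 h before (1 library, written 1-IC). The titles of 2-IC-1 and 2-IC-2 also carry different tags, Biotin24h and Biotin7d, and that of 1-IC carries CXCL13ICPE24h. What these tags stand for is not stated. LNs of 6 mice were pooled for a condition, how mice map to libraries is unclear, and libraries of mice without an IC were not analysed here.

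Long noncoding RNAs of this kind largely stay in the nucleus. Malat1 gathers in nuclear speckles, where splicing factors are stored, and Neat1 is the scaffold of paraspeckles. Meg3 and Kcnq1ot1 come from imprinted loci, the first from the maternal and the second from the paternal chromosome, and Kcnq1ot1 holds neighbouring genes silent on the chromosome it comes from. Because they stay with the nucleus, their share of a cell's RNA is often read beside that of cytoplasmic RNAs. Follicular dendritic cells (FDCs), among the cells compared here, hold ICs on complement receptors in the B cell follicle.

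In GRCm38 (GENCODE M21) Malat1 lies on the minus strand of chromosome 19 at 5795690-5802672 and Neat1 on the same strand at 5824708-5845478, each with a single exon in its longest transcript. Meg3 lies at 109541001-109571726 of chromosome 12 on the plus strand. Kcnq1ot1, annotated as antisense, covers 143203458-143296549 of chromosome 7 on the minus strand, and Gm26917 covers 39843013-39846341 of chromosome 17 on the plus strand, beside the ribosomal DNA-like Gm42418. Gm26917 was itself on the list of ribosomal DNA-region genes used below, and was taken out of that list's counts as a member of the set described here. No position is given for Gm20417. The kit primes on runs of A, so the longest such run in the longest annotated transcript of each is printed, with the run in capitals and 15 bases on either side in lower case.
Malat1, chr19:5795973-5796014: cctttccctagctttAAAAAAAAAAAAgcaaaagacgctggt
Neat1, chr19:5835919-5835955: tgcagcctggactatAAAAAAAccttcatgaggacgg
Meg3, chr12:109545802-109545847: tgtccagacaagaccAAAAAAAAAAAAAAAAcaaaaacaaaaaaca
Gm26917, chr17:39845121-39845154: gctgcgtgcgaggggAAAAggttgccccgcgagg
Kcnq1ot1, chr7:143226930-143227000: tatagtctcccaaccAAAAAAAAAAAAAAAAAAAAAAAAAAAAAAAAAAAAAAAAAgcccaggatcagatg

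The runs were 12, 7, 16, 4 and 41 bases long in that order. Of 55450 annotated genes, 5.60% had a run as long as that of Malat1, 27.6% as long as that of Neat1, 2.18% as long as that of Meg3, 87.3% as long as that of Gm26917 and 0.0252% as long as that of Kcnq1ot1. Levels are not compared between the 6 genes, since a 3' count depends on such features as well as on abundance.

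After the study's filters, 1526 barcodes were kept in 2-IC-1, 391 in 2-IC-2 and 326 in 1-IC, 2243 of 5486 in all, with median depths of 4700.5, 14732 and 5979 UMIs. Clusters rebuilt with these 6 genes, and 6 more, left out of the variable genes gave FDC-like, interfollicular (IFRC-like), T-B border (TBRC-like) and medullary (MedRC-like) reticular cells, and 4 larger clusters that stayed unnamed. A hematopoietic-like class of 56 barcodes was left out of the stromal barcodes described below, and an interferon-like class of 29 was counted among them. FDC-like cells had Cr2, the complement receptor that defines them, in 71.4% of barcodes against 1.3% in IFRC-like cells. Only a cluster with Cr2 in at least 25% of barcodes could be named FDC-like, so a high share was set by the naming. 2-IC-2 stood apart, as most of its barcodes fell in unnamed clusters 6 and 7 and its ribosomal DNA-like Gm42418 stood at 42031 CPM (UMIs scaled to a total of 1000000) against 9826 in 2-IC-1 and 13967 in 1-IC. The 2 2-IC libraries shared 76 barcodes, with medians of 782.5 UMIs in replicate 1 and 32618.5 in replicate 2, of which 15 were kept in both and none fell in the same class in both. Unnamed cluster 3 was shallow, with a median of 1335.5 UMIs, and was led by Igkc, Gm42418, H2-Aa and mitochondrial genes. Cd74 was also among its 10 leading genes. Its best marker score was hematopoietic but, at 0.407, lay under the naming limit of 0.5, so it is counted as stromal here. At resolution 1.2 a cluster of 223 barcodes with a median of 1203 UMIs, led by Gm42418, Igkc and H2-Aa, was named hematopoietic-like. Cluster 3 held 33 of the 38 shared stromal barcodes of 2-IC-1.

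Malat1 took more UMIs than any other gene in each library. Over the stromal barcodes it made up 4.20% of UMIs in 2-IC-1, 6.50% in 2-IC-2 and 8.90% in 1-IC. The median barcode lay at 3.20%, 5.97% and 8.26% in the same order, so the libraries were ordered alike by sums and by barcodes.

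In every library FDC-like barcodes with hardly any Malat1 stood beside others with plenty, with few between them in 2-IC-2 and 1-IC and a continuous range in 2-IC-1. Malat1 was under 1% of UMIs in 35 of 129 FDC-like barcodes of 2-IC-1 (27.1%, exact 95% interval 19.7 to 35.7%), in 11 of 37 of 2-IC-2 (29.7%, 15.9 to 47.0%) and in 23 of 75 of 1-IC (30.7%, 20.5 to 42.4%). The 3 shares lay within each other's intervals, which cover counting error only. The 1% line was drawn after the values were seen, and between 0.5 and 2% lay 14, 2 and 0 FDC-like barcodes of these libraries. The 25th percentile of FDC-like barcodes was 0.763%, 0.0983% and 0.0413% Malat1, while the median stood at 4.28%, 8.73% and 9.13% and the 90th percentile at 16.2%, 29.8% and 26.5%.

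**Figure D1:**
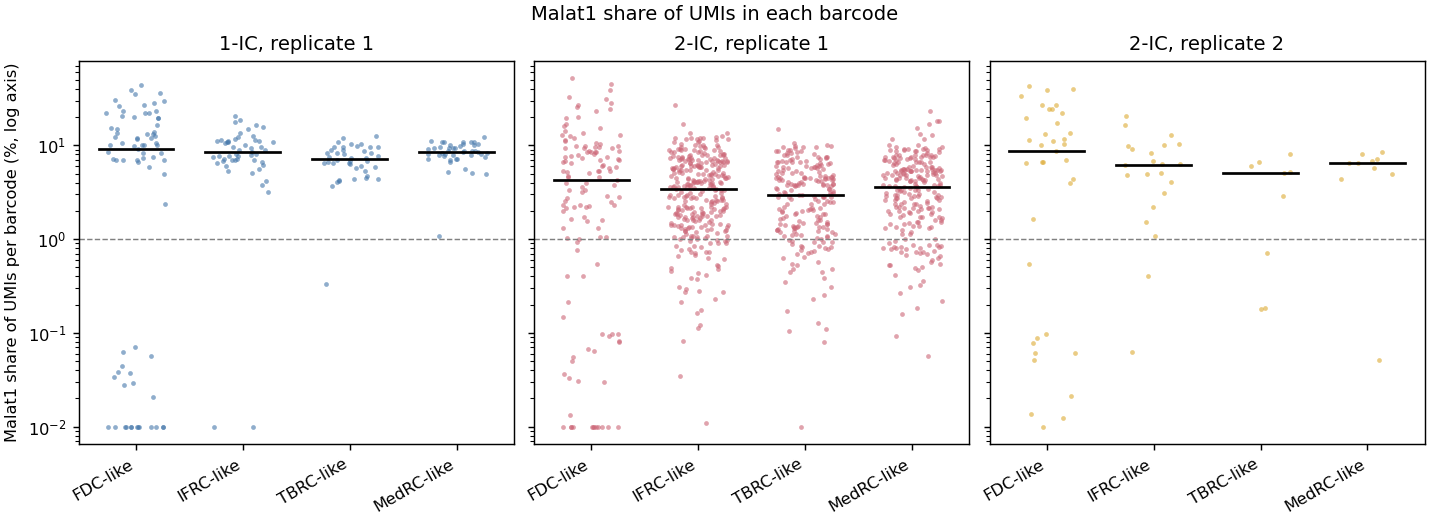
Malat1 share of UMIs (%, log axis, values under 0.01% drawn at 0.01%) in each barcode of the 4 named reticular and FDC-like classes, by library, with the median as a bar and 1% as a dashed line. In 2-IC-2 and 1-IC few FDC-like barcodes lie near the line, while in 2-IC-1 14 of 129 lie between 0.5 and 2%, with 35, 11 and 23 barcodes under the line in 2-IC-1, 2-IC-2 and 1-IC.

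The named reticular classes held fewer such barcodes in 1-IC, where Malat1 was under 1% in 2 of 51 IFRC-like barcodes (3.92%), 1 of 42 TBRC-like (2.38%) and 0 of 44 MedRC-like (at most 8.04%), and the 10th to 90th percentile of MedRC-like barcodes ran from 5.91% to 10.9%. In 2-IC-1 the reticular classes were spread more widely, from 0.731% to 8.51% in MedRC-like cells, with 14.4% of IFRC-like, 17.5% of TBRC-like and 16.9% of MedRC-like barcodes under 1%. There, 87 of 313 IFRC-like barcodes lay between 0.5 and 2%, so the line cut through a continuous range. In 2-IC-2 only IFRC-like cells reached 20 barcodes among these classes, and 2 of 22 were under 1% (9.09%). Of the larger unnamed clusters of that library, clusters 6 and 7 had 0 of 163 and 0 of 97 barcodes under 1%, which allows shares of up to 2.24% and 3.73% by the same interval. The shallow cluster 3 did hold Malat1-poor barcodes, 29 of 207 in 2-IC-1 (14.0%), 22 of 39 in 2-IC-2 (56.4%) and 10 of 40 in 1-IC (25%), and in 1-IC none of its barcodes lay between 0.5 and 2%, as in FDC-like cells. Outside the stromal barcodes, 28 of 34 hematopoietic-like barcodes of 2-IC-1 (82.4%) were under 1% Malat1. This class reached 20 barcodes in no other library.

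The share of Malat1-poor FDC-like barcodes was alike when the class was drawn in other ways. With a Cr2 UMI as the sole requirement, 24.1%, 28.6% and 36.0% of barcodes were under 1% Malat1 in 2-IC-1, 2-IC-2 and 1-IC, against 18.5%, 10.1% and 12.0% of barcodes without one. Among FDC-like barcodes of at least 2000 UMIs the shares were 25%, 27.3% and 24.6%, and without shared barcodes 27.3%, 31.4% and 31.1%. With the contaminant filter left off they were 27.4%, 25.6% and 31.1%. The Malat1-poor FDC-like barcodes were shallower, with medians of 3270, 5658 and 2682 UMIs against 6619, 13390 and 7284 in the others.

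The other nuclear RNAs were nearly missing from the same barcodes. In the Malat1-poor FDC-like barcodes of 2-IC-2 (11) and 1-IC (23), Neat1, Gm26917, Gm20417 and Kcnq1ot1 had 0 UMIs each, which with up to 3 counts allows at most 49.6 CPM in the first and 48.2 CPM in the second. In the Malat1-richer FDC-like barcodes the paraspeckle RNA Neat1 stood at 1064 and 240 CPM in these libraries, Gm20417 at 1226 and 141 CPM, and Kcnq1ot1 at 471 and 222 CPM. Gm26917 stood there at 321 and 96.6 CPM. All 4 RNAs thus lay above the bound in the richer barcodes of both libraries. In 2-IC-1 a few UMIs remained, with Neat1 at 85.3 CPM in Malat1-poor against 499 CPM in Malat1-richer barcodes, Gm20417 at 31.0 against 369 CPM, Gm26917 with 1 UMI against 64.9 CPM, and Kcnq1ot1 with 0 UMIs against 130 CPM. Meg3 had 0 UMIs in all 241 FDC-like barcodes. Such a drop was not confined to FDC-like cells. With the same split in 2-IC-1, Gm20417 stood at 39.5 against 178 CPM in IFRC-like, 22.1 against 154 in TBRC-like and 64.6 against 191 in MedRC-like cells. Neat1 stood there at 111 against 286, 155 against 325 and 124 against 408 CPM. Kcnq1ot1 and Gm26917 were also lower in the Malat1-poor barcodes of each of these classes.

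**Figure D2:**
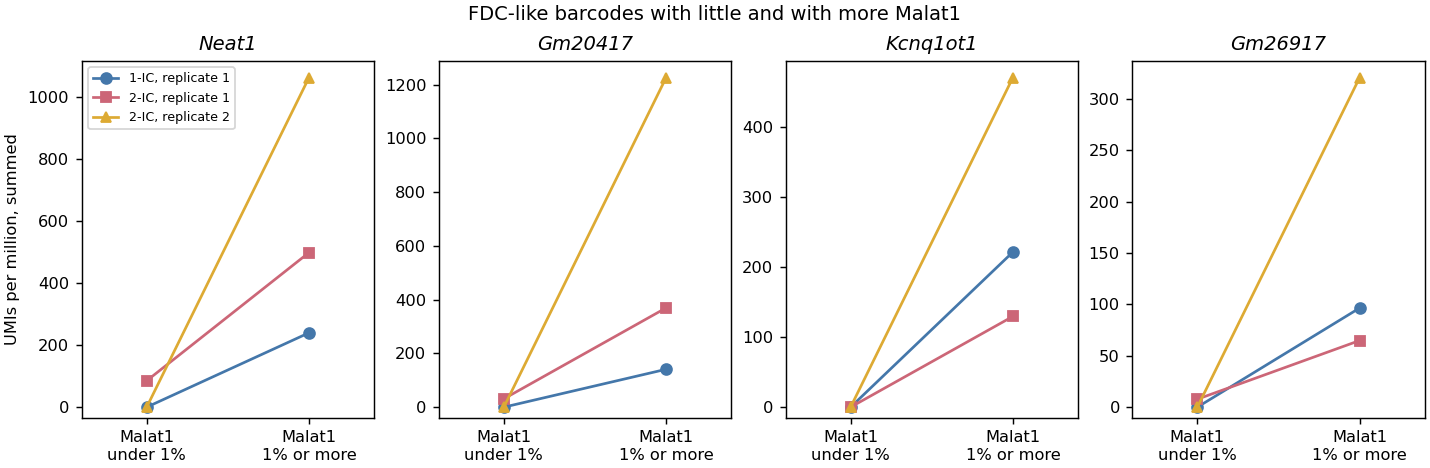
Summed level (CPM, linear axes that differ between panels) of Neat1, Gm20417, Kcnq1ot1 and Gm26917 in FDC-like barcodes with under 1% and with at least 1% Malat1, 1 line for each library. Every line rises to the right, and in 2-IC-2 and 1-IC the left-hand points are at 0 UMIs.

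The Malat1-poor barcodes carried Cr2, Fcer2a and Clu at least at the level of the richer ones. The other genes of the FDC marker list were not compared across this split. Cr2 was not confined to the FDC-like class. With the contaminant filter left off, it had a UMI in 28.8% of barcodes of a cluster led by Fcmr and Cd79a. In a cluster led by Ly6d, Bank1 and Ms4a1 the share was 47.4%. Cr2 stood at 1628, 2114 and 1525 CPM in the Malat1-poor barcodes of 2-IC-1, 2-IC-2 and 1-IC, against 990, 1052 and 694 CPM in the richer ones. Fcer2a, the low-affinity IgE receptor CD23, stood at 357, 644 and 514 CPM against 168, 92.5 and 110 CPM, and the chaperone Clu at 26853, 22993 and 29171 CPM against 20642, 15647 and 23655 CPM. Xist, which coats the inactive X chromosome and also stays in the nucleus, followed Malat1 instead, with 202, 0 and 0 CPM against 643, 1784 and 785 CPM. Ribosomal protein genes made up 15.7%, 13.7% and 14.6% of UMIs in the Malat1-poor barcodes against 11.2%, 7.33% and 10.5% in the others.

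Transcripts of immune cells moved with this split. The 17 B cell markers summed to 4419, 1355 and 2119 CPM in the Malat1-poor barcodes and to 1423, 801 and 1065 CPM in the richer ones, with the antigen presentation chaperone Cd74 at 1690, 496 and 979 CPM against 624, 396 and 712 CPM. The defining B cell marker Ms4a1 had 0, 1 and 0 UMIs in the Malat1-poor barcodes. The 12 macrophage and dendritic cell markers summed to 946, 611 and 1220 CPM against 464, 338 and 360 CPM. The 10 T cell markers and the 10 endothelial markers stayed within 3 UMIs each in the Malat1-poor barcodes. The contaminant filter had already set some list genes to 0 in every kept barcode. These were Cd79a and Cd79b (B cell), Trac and Cd3d (T cell), and Lyve1, Egfl7, Cldn5 and Ly6c1 (endothelial). No absence of such cells is therefore read from these low counts. The part of other cells' RNA in the split was not tested.

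Summed over cells, the FDC-like class had the most Malat1 of the named classes with at least 20 barcodes in each library, in spite of these barcodes. In 2-IC-2 only the FDC-like and IFRC-like classes reached that size. The FDC-like class stood at 64725 CPM in 2-IC-1, 103547 in 2-IC-2 and 108542 in 1-IC, against 41613, 58064 and 87326 CPM in IFRC-like cells. The ratio was 1.56, 1.78 and 1.24. TBRC-like cells were the lowest of the named stromal classes where counted, with 34706 CPM in 2-IC-1 and 69664 CPM in 1-IC, and MedRC-like cells stood at 42247 and 83856 CPM. Means over libraries overlapped within their SDs, at 92271 ± 23986 CPM (SD, n = 3) in FDC-like, 62334 ± 23154 (n = 3) in IFRC-like, 63052 ± 29422 (n = 2) in MedRC-like and 52185 ± 24719 (n = 2) in TBRC-like cells, so the order of neighbours rests on comparisons within a library. The shallow unnamed cluster 3 went from 47580 CPM in 2-IC-2 to 79535 in 2-IC-1 and 140817 in 1-IC.

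Neat1, Kcnq1ot1 and Gm26917 were also higher in FDC-like than in IFRC-like cells within each library. Neat1 stood at 430, 905 and 207 CPM in FDC-like cells of 2-IC-1, 2-IC-2 and 1-IC against 263, 246 and 110 CPM in IFRC-like cells. Kcnq1ot1 stood at 108, 401 and 191 CPM against 80.2, 151 and 115 CPM, although MedRC-like cells of 2-IC-1 lay above FDC-like cells at 130 CPM. Gm26917 was at 55.4, 273 and 83.1 CPM in FDC-like against 50.4, 91.9 and 43.2 CPM in IFRC-like cells. Gm20417 had no common direction, being higher in FDC-like cells in 2-IC-1 (313 against 159 CPM) and 2-IC-2 (1043 against 860 CPM) and lower in 1-IC (121 against 146 CPM). With marker gates in place of clusters, the mean log2 ratio of FDC-like to IFRC-like cells went from 0.60 to 0.32 for Malat1, from 1.17 to 0.51 for Neat1 and from 0.86 to 0.27 for Kcnq1ot1.

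**Figure D3:**
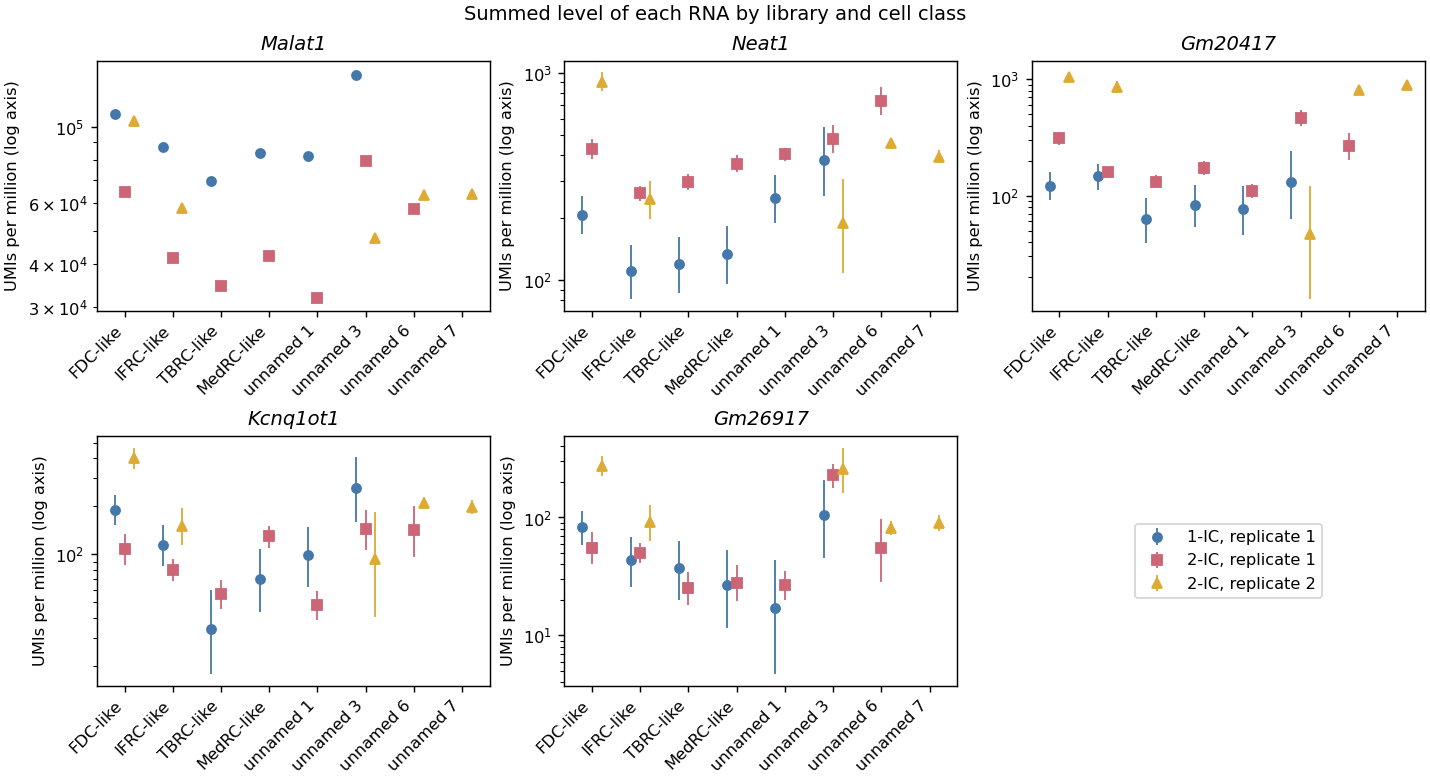
Summed level (CPM, log axes) of Malat1, Neat1, Gm20417, Kcnq1ot1 and Gm26917 by class, 1 point for each library with at least 20 barcodes, with exact 95% Poisson intervals for counting error. Malat1 is highest in the FDC-like class among the named classes drawn for each library, which in 2-IC-2 are FDC-like and IFRC-like alone. Gm20417 of 2-IC-2 lies at 860 and 1043 CPM in the IFRC-like and FDC-like classes, above both other libraries.

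Meg3 was scarce among kept stromal barcodes, at 16.6, 10.4 and 7.54 CPM in 2-IC-1, 2-IC-2 and 1-IC. Only 61 of 2243 kept barcodes had a Meg3 UMI, and 11 barcodes with 5 or more held 129 of its 211 UMIs. It stood at 138 ± 151 CPM (SD, n = 3) in the shallow unnamed cluster 3 and at 30.2 ± 0.20 CPM (n = 2) in unnamed cluster 1, led by Apod, Cxcl1 and Klf2. The mean of cluster 3 rests mostly on 2-IC-2, at 306 CPM, where all 26 Meg3 UMIs came from 1 barcode. In 1-IC that cluster had 1 Meg3 UMI. With the contaminant filter left off Meg3 had 810 UMIs.

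Between libraries, the 6 RNAs did not move together. Malat1 was 0.473 times as high in 2-IC-1 as in 1-IC and 0.731 times in 2-IC-2, whereas Neat1 was 2.11 and 2.61 times as high. In 2-IC-1 against 1-IC, 2 of the 4 RNAs that reached 50 CPM were at least 2-fold apart (Malat1 and Neat1), where 2.34% of all such genes were. In 2-IC-2 against 1-IC they were 3 of 5 (Neat1, Gm26917 and Gm20417), where 11.8% of genes were, and between the 2-IC libraries 3 of 5 (Gm26917, Gm20417 and Kcnq1ot1), where 5.36% were. Gm26917 reached 50 CPM in 2-IC-2 alone, so its place in both of these counts was set by that limit. The genes were chosen with these libraries known, so nothing is read from these counts. With 1 library of 1-IC mice, the number of ICs, the time since the first IC and the library cannot be told apart. Within classes, the ratio of 2-IC-1 to 1-IC was 0.477 to 0.596 for Malat1 and 2.08 to 2.72 for Neat1 over the FDC-like, IFRC-like, MedRC-like and TBRC-like classes.

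Gm20417 set 2-IC-2 apart. Its stromal level was 837 CPM there, against 174 CPM in 2-IC-1 and 113 CPM in 1-IC, ratios of 4.81 and 7.40. Per 1000 Malat1 UMIs, 12.9 Gm20417 UMIs were counted in 2-IC-2 (exact Poisson 95% interval 12.5 to 13.2), 4.14 in 2-IC-1 (3.93 to 4.36) and 1.27 in 1-IC (1.11 to 1.45). The 3 intervals, for counting error, lay apart. Within 2-IC-2 the ratio ran from 10.1 in FDC-like to 14.8 in IFRC-like cells and was 12.7 and 14.1 in unnamed clusters 6 and 7, but in the shallow cluster 3 only 4 Gm20417 UMIs were counted beside 4043 of Malat1, a ratio of 0.989 (0.270 to 2.53). In the other libraries it stayed between 3.44 and 5.87 (2-IC-1) and between 0.902 and 1.68 (1-IC) over all classes.

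**Figure D4:**
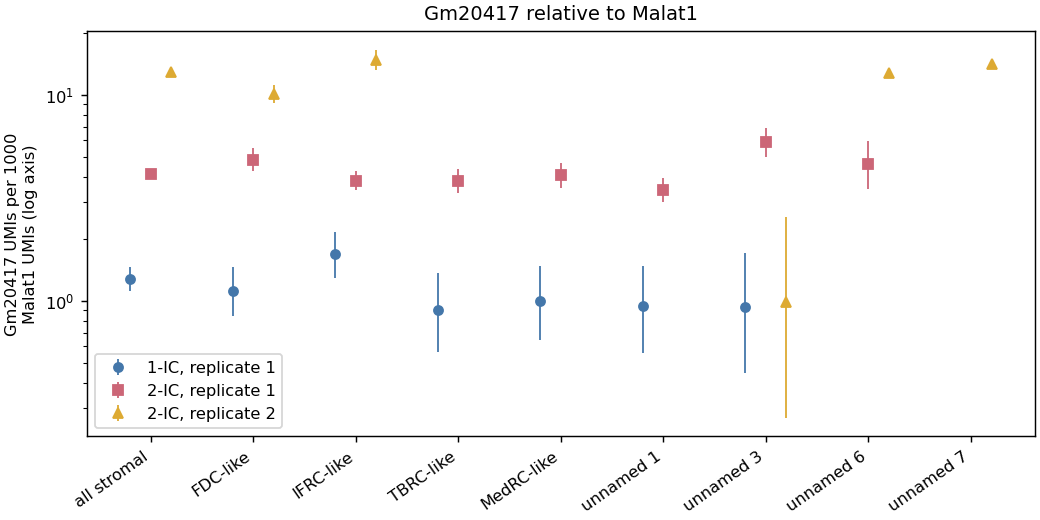
Gm20417 UMIs per 1000 Malat1 UMIs (log axis) for all stromal barcodes and by class, 1 point for each library with at least 20 barcodes, with exact 95% Poisson intervals. The libraries form 3 levels, 12.9, 4.14 and 1.27 over all stromal barcodes, and cluster 3 of 2-IC-2, which is shallow, lies at 0.989.

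The ratio differed between depths of the barcode, without a common direction. From barcodes under 2000 UMIs to those of 10000 to under 20000 it went from 2.82 to 13.3 in 2-IC-2. In 2-IC-1 it went from 7.00 to 3.39 and in 1-IC from 0.946 to 1.91. In the shallowest barcodes 2-IC-2 thus lay below 2-IC-1, but its 2.82 rests on 5 Gm20417 UMIs beside 1773 of Malat1. Of those 41 barcodes of 2-IC-2, 32 belonged to cluster 3. The 0.946 of 1-IC rests on 8 Gm20417 UMIs. Barcodes that 2-IC-1 shared with another library held 15 Gm20417 UMIs beside 1244 of Malat1, against a ratio of 4.11 in its other stromal barcodes, and most of them were shallow. How barcodes came to be shared was not tested. The antisense RNA Tsix, which overlaps Xist, stood at 82.9 UMIs per 1000 Xist UMIs in 2-IC-2, mostly from cluster 6 (206 of 283 Tsix UMIs), against 47.8 in 2-IC-1 and 25 in 1-IC, but in FDC-like cells at 48.6 in 2-IC-2 and 74.7 in 2-IC-1, while the 2631 genes annotated as antisense summed to 1884, 1834 and 1727 CPM. The part of the library in the Gm20417 level was not tested.

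Depth of the barcode went with some of these RNAs. Gm26917 stood at 177, 327 and 184 CPM in barcodes under 2000 UMIs of 2-IC-1, 2-IC-2 and 1-IC, and at 33.8, 69.5 and 53.6 CPM in barcodes of 10000 to under 20000 UMIs. These shallow sums were higher in all 3 libraries but rest on 42, 15 and 10 Gm26917 UMIs, and over single barcodes Spearman's rho of Gm26917 with the UMIs of the barcode was 0.05, 0.13 and 0.17. Of the shallow barcodes, 151 of 197, 32 of 41 and 27 of 44 belonged to cluster 3. Malat1 had no common direction, with 78918 against 38382 CPM and 155537 against 82462 CPM in 2-IC-1 and 1-IC, but 38643 against 66688 CPM in 2-IC-2. Without cluster 3, Malat1 still stood at 69358 CPM in the 46 barcodes under 2000 UMIs of 2-IC-1, and at 39466 CPM in barcodes of 2000 to under 5000 UMIs. Gm26917 stood at 85.8 CPM in those 46 barcodes, from 6 UMIs, in place of 177 CPM. In 1-IC and 2-IC-2 the bin under 2000 UMIs then held under 20 barcodes. In 2-IC-2 Malat1 stood at 107336 CPM in barcodes of 5000 to under 10000 UMIs and at 56177 CPM in those of 20000 or more.

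**Figure D5:**
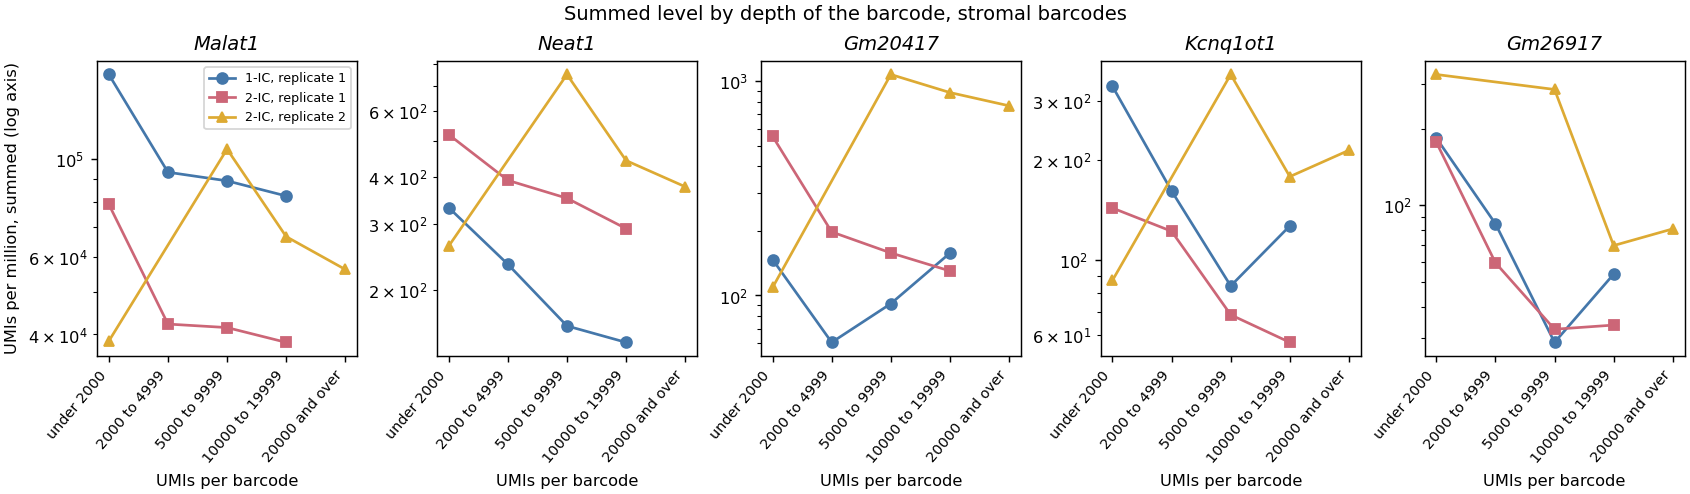
Summed level (CPM, log axes) of 5 RNAs against the UMIs of the barcode in 5 bins, 1 line for each library, bins under 20 barcodes left out. Gm26917 is highest in the shallowest bin of every library (177, 327 and 184 CPM), while Malat1 and Gm20417 of 2-IC-2 are lowest there.

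Barcode by barcode, Gm20417 followed Malat1 most closely of the 5 RNAs in both 2-IC libraries, and Kcnq1ot1 in 1-IC. Over stromal barcodes, scaled to the same total, Spearman's rho of Malat1 with Gm20417 was 0.47 in 2-IC-1 (1492 barcodes), 0.63 in 2-IC-2 (385) and 0.25 in 1-IC (310). With Neat1 it was 0.30, 0.40 and 0.20, with Kcnq1ot1 0.24, 0.27 and 0.32, with Gm26917 0.17, 0.39 and 0.19, and with Meg3 -0.02, 0.05 and 0.08. These values share the library, the depth and the total of each barcode, and most barcodes have few UMIs of the 5 rarer RNAs. Thinned to 2000 UMIs per barcode, rho with Gm20417 was 0.33, 0.35 and 0.12. In FDC-like cells rho with Neat1 was 0.59, 0.74 and 0.54 (129, 37 and 75 barcodes), against 0.25, 0.01 and 0.28 in IFRC-like cells (313, 22 and 51). In 2-IC-1 and 1-IC it was 0.34 and -0.34 in MedRC-like cells (243 and 44), and 0.22 and 0.05 in TBRC-like cells (217 and 42). Malat1-poor barcodes made up a larger share of FDC-like than of IFRC-like cells in each library. The Malat1 share fell as ribosomal protein genes rose, with rho of -0.38, -0.52 and -0.53, and went with the mitochondrial share in 2-IC-2 (0.56) and 1-IC (0.40) but hardly in 2-IC-1 (0.05).

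To see which RNAs varied with Malat1 outside the FDC-like class, stromal barcodes of every other cluster were split at the median Malat1 share of their library and cluster, summed, and compared with the library as a block. Malat1 itself, which made the split, was 1.77, 4.17 and 1.81 times as high in the rich side of 1-IC, 2-IC-1 and 2-IC-2. Gm20417 was 1.82, 3.64 and 1.79 times as high, close to Malat1 in each library. Neat1 (1.33, 1.90 and 1.31), Gm26917 (1.41, 2.24 and 1.88), Kcnq1ot1 (1.80, 2.59 and 1.14) and Meg3 (2.29, 2.54 and 3.66, from 5 to 100 UMIs per side) were higher in the rich side in all 3 libraries. For Meg3 in 2-IC-2, 26 UMIs came from 1 barcode, and without cluster 3 the ratio was 1.51. The mitochondrial median was 1.61% against 1.43%, 2.77% against 2.98% and 3.20% against 2.62% in rich against poor cells of these libraries.

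Among the other genes, edgeR's quasi-likelihood test called 152 of 11041 higher (1.38%) and 168 lower (1.52%) in Malat1-rich cells at an adjusted p under 0.05. The sides were ranked by a value from the same counts, so the calls describe co-variation with Malat1, not the effect of a condition. Without 1-IC 32 and 17 were called, without 2-IC-2 110 and 45, and without 2-IC-1 143 and 286. Without the library block none was called, and 126 genes had an unadjusted p under 0.05. Of 29 other long noncoding RNAs tested, 4 rose and none fell, with a median log2 change of 0.18 where all genes had -0.005. They were Gm37376 (log2 change 1.33, from 64.5 to 150, 53.5 to 198 and 115 to 207 CPM in 1-IC, 2-IC-1 and 2-IC-2, adjusted p = 2.69e-08), Tsix (0.94, adjusted p = 0.000986), Dleu2 (0.64, adjusted p = 0.00268) and Xist (0.55, adjusted p = 0.00268). Of the 29, 21, 21 and 14 were higher in the rich side of 1-IC, 2-IC-1 and 2-IC-2. Without 2-IC-1 5 rose and 1 fell, with a median of 0.054, and without 2-IC-2, without 1-IC or in DESeq2 2 rose. Of 32 genes for speckle and paraspeckle proteins, which share the nuclear bodies of Malat1 and Neat1, 4 rose and none fell, with a median of 0.18. They were Luc7l2 (0.55), the kinase Clk1 (0.52), Prpf38b (0.40) and the speckle scaffold Srrm2 (0.32, adjusted p = 0.0455). Without 2-IC-1, without 1-IC or in DESeq2 2 of them rose.

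Of 80 cytosolic ribosomal protein genes 34 fell and none rose, with a median log2 change of -0.27, and only 2, 3 and 1 of the 80 were higher in the rich side of 1-IC, 2-IC-1 and 2-IC-2. Rpl41 went from 5733 to 4817, 4986 to 4217 and 3337 to 2466 CPM in 1-IC, 2-IC-1 and 2-IC-2 (-0.31, adjusted p = 0.0170). The number called moved with the libraries used more than the size of the change did: 73 genes were called without 2-IC-1 (median -0.32), 1 without 2-IC-2 (-0.19), 0 without 1-IC (-0.28), 5 without cluster 3 (-0.21) and 0 after thinning (-0.27). Of 22 secreted matrix and chemokine genes 6 fell, none rose and the others did not pass the test, with a median of -0.16, and 9, 3 and 2 of the 22 were higher in the rich side of 1-IC, 2-IC-1 and 2-IC-2. They were Cxcl9 (-1.60, from 370 to 154, 188 to 87.8 and 338 to 61.4 CPM, adjusted p = 2.12e-09), the monocyte attractants Ccl7 (-0.91) and Ccl2 (-0.85), the T zone chemokine Ccl19 (-0.43), the matrix protein Sparc (-0.38) and Cxcl1 (-0.34). Without 1-IC 2 of the 22 were called, with a median of -0.23.

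All 13 mitochondrial genes were higher in the rich side of 1-IC (median log2 ratio 0.30) and of 2-IC-2 (0.32), but 6 of 13 in 2-IC-1 (-0.018). The median log2 change over the libraries was 0.20, and without 2-IC-1 6 of 13 were called higher. In the test over all 3 libraries mt-Nd6, encoded on the other strand from the rest, rose (0.78, from 45.0 to 62.6, 58.3 to 106 and 113 to 192 CPM, adjusted p = 8.36e-05) and none fell. Of 25 immediate early and stress genes 1 rose, Fosb, and of 6 imprinted neighbours of Meg3 and Kcnq1ot1 none was called. Of the B cell markers 1 of 7 tested rose, Igkc, although it was higher in the rich side in 2-IC-2 alone (174 to 606 CPM), and none of 6 macrophage and dendritic cell, 2 endothelial or 2 ribosomal DNA-region genes was called, while no T cell marker was tested. The other genes among the 10 largest rises were Fam71a, Gm26802, Gm19817, Fam208a, Zfp292, Gm26669 and 4932438A13Rik (0.60 to 0.77), and among the 10 largest falls Ifi27l2a, Saa3, Ly6a, Plac8, S100a11, Crip1 and Ap3s1 (-0.72 to -0.58), each with the same direction in all 3 libraries.

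Within FDC-like cells split in the same way, 211 of 3541 genes rose (5.96%) and 107 fell (3.02%) in edgeR's test. Speckle and paraspeckle protein genes rose in 9 of 29 cases with a median log2 change of 0.69, and 5 of 78 ribosomal protein genes fell with a median of -0.69. Of 22 immediate early and stress genes 5 rose, with a median of 0.54, and of 17 secreted matrix and chemokine genes 2 rose and 1 fell, with a median of 0.015. Whether these differ from the other cells was not tested. Of 5 B cell markers tested 2 fell. Neat1 was 2.84, 2.57 and 4.34 times as high in the rich side of 1-IC, 2-IC-1 and 2-IC-2, and Gm20417 3.30, 6.46 and 4.68 times.

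Over 18 sums of a library and a cluster, centred within libraries, the genes most like each RNA among 2907 at 50 CPM or more were taken. Malat1 was most like Golga4, a golgin of the Golgi (Pearson's r = 0.92), then Pnisr, Aebp2, Usp7 and 4632427E13Rik (0.88 to 0.86), and Kcnq1ot1 had r = 0.85 with it. Gm20417 was most like the splicing regulator Rbm25 (0.96), then Cwf19l2, Trappc10, Vps13c and Slc25a36 (0.92 to 0.91). Neat1 was most like Rb1cc1, Mdm4, Nktr, Setd5 and Jmjd1c (0.86 to 0.82), and Kcnq1ot1 most like Krit1, Zfp638, Syne2, Phip and Cnot1 (0.89 to 0.86). Gm26917 was most like Mir6236 (0.84), then Grb2, Pnisr, Cdc42bpa and Numa1 (0.79 to 0.77). Between the members compared, r was lowest for Gm26917 with Gm20417 (0.14) and with Neat1 (0.30). Malat1 had r = 0.73 with Neat1, 0.71 with Gm26917 and 0.67 with Gm20417. Kcnq1ot1 had r = 0.76 with Neat1, 0.64 with Gm20417 and 0.50 with Gm26917, and Neat1 had r = 0.54 with Gm20417. The sums share libraries and depth, so these values carry no test.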

How the data were processed

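Sorted LN stromal cells were profiled with 10x Genomics 3' chemistry, 1 library for each of 3 samples. The authors deposited a matrix of UMI counts per gene and barcode for each library, made with Cell Ranger 5.0.0 per the file headers on mouse build GRCm38. Total counts per library were 20607903 (2-IC-1), 12788101 (2-IC-2) and 3766526 (1-IC). One short description of 2-IC-2 conflicts with its title, and samples were grouped by title. No table column was left unassigned.

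Barcodes with at least 200 genes, at most 10% mitochondrial UMIs and no UMI of 13 contaminant genes were kept, as in the study. Of 5486 barcodes, 2270 failed on a contaminant gene alone. Clusters were made in Seurat 5.3.0 (2000 variable genes, 10 principal components, resolution 0.8), and named from fixed markers, so shares can differ from those of the study. The limits for naming were set with the data at hand. Scrublet (scanpy 1.11.5) marked 2 barcodes, too few for it to have worked, and none was removed. Levels are UMIs scaled to a total of 1000000 (CPM), for class and depth sums of at least 20 barcodes; the Malat1-poor FDC-like barcodes and the Meg3-rich cluster are given also where a library held fewer. Intervals are exact and, like the limit of 3 counts for a count of 0, cover counting error only, so a deeper library gives narrower ones.

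Malat1-rich and Malat1-poor cells, split at the median of each library and cluster, were summed per library and tested in edgeR 4.0.16 (quasi-likelihood, TMM, filterByExpr, library as a term, Benjamini-Hochberg adjustment). The 6 RNAs were left out of the tests. Both sides of a library come from 1 cell suspension, and the library is a term. The p-values therefore measure the spread, over 3 libraries, of the difference between the sides, not a spread between mice. Barcodes were ranked by a measured value. On simulated sums, 125 of 200 genes changed by a log2 of 1 and 188 of 200 changed by a log2 of 2 were recovered. The simulation used a fixed dispersion and the same change in every library, so its recovery need not hold for the data. Alternatives were DESeq2 1.42.0, other normalizations, filters, splits, clusters and thinning to 2000 UMIs, leaving out each library, and, chosen after seeing the data, leaving out shared barcodes or the shallow cluster.

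Genes were named by a rule: the 6 RNAs, the 10 largest rises and falls with 1 direction in all libraries and a mean of at least 50 CPM, the 4 highest genes of each list, and the 5 genes most like each RNA by Pearson's r of log2(CPM + 1). Called genes of a list outside this rule were named after their values were seen. The members and lists were chosen with earlier results of these data known.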

Additional observations from a re-analysis of the deposited data

Results flagged for a closer look

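Meg3, the maternally expressed imprinted RNA, was concentrated in barcodes that the contaminant filter removed, and it is listed here because these barcodes enter no comparison above. With the filter left off, 440 of 810 Meg3 UMIs (54.3%) fell in 1 unnamed cluster of 54 barcodes, 1.2% of 4513, of which 1 was kept. The cluster was led by Igfbp6, Meg3, Smpd3, Pcolce2, Ace, Mfap5, Pi16 and Ly6c1. Meg3 stood there at 616 CPM in 2-IC-1 (44 barcodes) and at 1171 CPM in 2-IC-2 (9 barcodes), against 16.6 and 10.4 CPM in the kept stromal barcodes. The contaminant gene Ly6c1 had a UMI in 50 of the 54 barcodes (92.6%) and S100b in 19 (35.2%). Malat1 was low there, at 12943 and 31748 CPM.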

How the results depend on the processing

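Marker gates moved the mean log2 ratio of Malat1 in FDC-like to IFRC-like cells from 0.60 to 0.32, and leaving out 1 library gave 0.48 to 0.74. Thinning moved the percent of genes at least 2-fold apart to 4.22 (2-IC-1 against 1-IC) and 8.10 (2-IC-2 against 2-IC-1). Of the counts of genes higher and lower in Malat1-rich cells, 152 and 168, DESeq2 gave 21 and 59, thinning 29 and 11, all stromal cells 434 and 572, and no contaminant filter 324 and 287. The top against the bottom 25% of Malat1 share gave 61 lower, a split over the whole library 280 lower and FDC-like cells alone 107 lower. Without the replicate block, that is without pairing the sides of a library, edgeR gave 0 and 0. Leaving out 1 library gave 32 to 143 higher and 17 to 286 lower. The cause was not tested. Ribosomal protein genes lower, 34, became 18 in DESeq2, 56 with no filter on low counts, 1 with the top and bottom 25%, 62 with the split over the whole library, 73 in all stromal cells and 22 without shared barcodes. The mean log2 ratio of rich to poor cells was above 0 in 12 of 12 alternatives for Neat1 (0.40 to 1.66), Gm26917, Gm20417 and Kcnq1ot1, and in 11 of 11 for Meg3. These alternatives reuse many of the same barcodes, and a mean can hide 1 library. After thinning, Gm26917 of 1-IC stood at 33.7 CPM in poor and 20 CPM in rich cells, from 7 and 4 UMIs. Depth limits the rarer RNAs, above all Meg3 with 211 UMIs, and 1-IC mice have 1 library.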

Other observations

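Barcodes left out for a contaminant gene alone (1607, 365 and 298 in 2-IC-1, 2-IC-2 and 1-IC) had less Malat1 than the kept stromal barcodes, at 28003, 44293 and 59252 CPM against 42049, 65026 and 88983 CPM. Neat1 stood there at 241, 356 and 99.6 CPM, Gm20417 at 106, 557 and 76.2 CPM, and Kcnq1ot1 at 86.0, 206 and 94.9 CPM. The order of the 3 libraries in Gm20417 was the same as in kept barcodes.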
